A study of Mus musculus with 14 samples.

Results

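The transcripts described here come from 38 genes of the cell division machinery, measured in whole mouse hearts from which Sqstm1 had or had not been deleted in cardiac muscle. The genes were taken by name from a list of cyclins and their kinases, replication factors and mitotic proteins, which was drawn up with earlier results of these data known. Of the 55487 genes in the count table, 15528 had enough reads to be tested, and 35 of the 38 were among these. Aurkb, Plk1 and Bub1 had too few reads.

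All mice were untreated C57BL/6 males. Wild-type hearts were taken at 2 months (3 hearts) and at 15 months (4 hearts), and so were hearts labelled cardiac-specific p62 KO with the genotype Myh6-Cre-Sqstm1fl/fl (3 and 4 hearts). In that genotype Cre recombinase is driven by the promoter of Myh6, a myosin gene of cardiac muscle, and removes Sqstm1 between loxP sites, so the other cells of the heart keep the gene. The labels call the controls wildtype and do not say whether they carried Cre or the floxed allele. They also do not say that the hearts of a group were processed separately or shared a litter, so the p-values below measure the spread between these samples.

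Cells that re-enter the cycle use D-type cyclins with Cdk4 to release E2F transcription factors from the retinoblastoma protein. E2F then drives the genes of S phase: the MCM helicase that opens DNA, the clamp Pcna, and the enzymes that make deoxynucleotides. Genes of mitosis are transcribed later, with FoxM1 and the MuvB complex, and their products condense chromosomes, build the spindle and hold the checkpoint. Adult cardiac muscle cells rarely divide, so in a whole adult heart these transcripts come in part from endothelial cells, fibroblasts and macrophages. In bulk RNA, fewer cycling cells and less RNA per cycling cell cannot be told apart.

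The series was first checked by its deleted gene. Sqstm1 was at 162 ± 20.03 CPM (reads scaled to library size; mean ± SD, n = 3) in wild-type and 16.4 ± 2.49 CPM (n = 3) in knockout hearts at 2 months, and at 201 ± 28.3 CPM and 21.3 ± 10.5 CPM (n = 4 each) at 15 months. Among the aged knockout hearts, replicate 2 held 37.0 CPM of Sqstm1 and the others 14.6 to 17.6 CPM. Library depth ran from 20218992 to 30404416 counts, of which 27.5% to 46.0% fell on mitochondrially encoded genes. Cardiac muscle markers summed to 42300 to 90900 CPM. Wild-type replicate 1 at 2 months stood apart by its atrial markers (1633 CPM in sum, against 2.57 to 217 CPM in the other 13 libraries). Wild-type replicate 2 at 15 months stood apart in the cell cycle genes themselves: 29 of the 35 tested were below their own mean over the 14 libraries, with a median deviation of -0.50 on the log2 scale.

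Promoters of 31 of the 38 genes were found in RefSeq (GRCm38.p6); Tpx2, Mcm4, Ccnd1, Ccnd2, Ccna2, Foxm1 and Aurkb had no entry. The 250 bases before the annotated start are shown for 6 of them. Top2a, Mki67 and Rrm2 had the smallest p-values between genotypes at 15 months, and Cenpf and Rrm1 had the smallest p-values with age. Mcm6 is shown as a helicase gene with the E2F letters. Capitals mark 4 motifs on either strand: TTTGAA and TTCGAA (letters of the cell cycle homology region, bound by MuvB), CCAAT (the NF-Y box) and TTTNGCGC (letters of the E2F site). They are printed 5′ to 3′ on the strand of the gene, and all but Rrm1 and Rrm2 lie on the minus strand. The regions are chr11:99024190-99024439 for Top2a, chr7:135716380-135716629 for Mki67, chr12:24708004-24708253 for Rrm2, chr1:189688087-189688336 for Cenpf, chr7:102441445-102441694 for Rrm1 and chr1:128359706-128359955 for Mcm6, each ending before the start that RefSeq gives. In GENCODE the Rrm2 gene starts earlier, so the last bases of its region lie inside that gene model.
Top2a: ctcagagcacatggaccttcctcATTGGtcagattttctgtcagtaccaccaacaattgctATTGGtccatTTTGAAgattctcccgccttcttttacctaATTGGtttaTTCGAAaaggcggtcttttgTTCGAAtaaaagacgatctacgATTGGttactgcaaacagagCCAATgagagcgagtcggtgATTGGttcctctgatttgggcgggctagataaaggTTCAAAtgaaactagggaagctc
Mki67: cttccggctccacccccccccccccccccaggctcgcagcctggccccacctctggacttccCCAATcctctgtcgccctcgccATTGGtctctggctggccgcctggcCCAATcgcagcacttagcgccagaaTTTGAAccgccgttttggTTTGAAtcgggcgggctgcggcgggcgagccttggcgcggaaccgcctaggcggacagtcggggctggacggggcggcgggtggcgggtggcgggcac
Rrm2: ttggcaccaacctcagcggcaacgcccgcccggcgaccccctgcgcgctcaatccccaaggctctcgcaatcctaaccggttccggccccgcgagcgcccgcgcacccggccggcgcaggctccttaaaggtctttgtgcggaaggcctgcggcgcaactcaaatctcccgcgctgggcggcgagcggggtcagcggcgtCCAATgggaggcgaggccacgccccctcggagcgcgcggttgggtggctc
Cenpf: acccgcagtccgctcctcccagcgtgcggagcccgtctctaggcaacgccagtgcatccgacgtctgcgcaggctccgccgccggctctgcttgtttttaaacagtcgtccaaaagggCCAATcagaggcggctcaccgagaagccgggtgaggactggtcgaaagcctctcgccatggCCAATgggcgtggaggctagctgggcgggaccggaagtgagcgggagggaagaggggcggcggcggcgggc
Rrm1: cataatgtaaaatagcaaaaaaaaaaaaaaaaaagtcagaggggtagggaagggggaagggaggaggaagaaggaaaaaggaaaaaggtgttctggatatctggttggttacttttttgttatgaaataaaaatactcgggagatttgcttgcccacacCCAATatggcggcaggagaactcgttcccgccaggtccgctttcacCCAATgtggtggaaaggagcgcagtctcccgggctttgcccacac
Mcm6: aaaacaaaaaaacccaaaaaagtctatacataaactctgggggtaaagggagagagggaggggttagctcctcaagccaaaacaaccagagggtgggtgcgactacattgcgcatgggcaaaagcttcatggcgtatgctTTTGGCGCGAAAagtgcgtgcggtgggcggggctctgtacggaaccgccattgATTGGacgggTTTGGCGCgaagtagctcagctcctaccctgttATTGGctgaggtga

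The Top2a promoter held CCAAT or its reverse complement ATTGG 6 times, with TTTGAA and TTCGAA each 2 times among them. Mki67 held CCAAT 3 times and TTTGAA 2 times. Cenpf and Rrm1 each held CCAAT 2 times and none of the other letters, and Rrm2 held CCAAT a single time. Mcm6 held TTTNGCGC 3 times, of which an overlapping pair reads on both strands, and CCAAT 2 times. Over all members with a promoter, CCAAT was in 26 of 31 (83.9%), against 33.9% of the 32851 promoters in the table. TTTGAA was in 10 of 31 (32.3%, against 16.0%), TTCGAA in 3 of 31 (9.68%, against 1.34%) and TTTNGCGC in 3 of 31 (9.68%, against 1.13%; Cdk1, Mcm5 and Mcm6). TTTGAA was in 6 of the 13 spindle and checkpoint genes with a promoter and in 2 of the 11 replication genes. Members were counted by gene, with the letters in any promoter of the gene, while the shares of the table were counted by promoter. These matches describe letters in a window and no binding was measured.

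The 38 genes covered a wide range of levels. Per kilobase of exon, the means over all 14 libraries were highest for Ccnd2 (14.7 ± 3.15 CPM per kb, SD, n = 14), Ccnd1 (11.7 ± 3.24) and Cdk4 (10.3 ± 2.02), the cyclins and kinase that act first. They were followed by the replication clamp Pcna (7.92 ± 0.861), the kinetochore protein gene Cenpf (4.08 ± 2.68) and Ccnd3 (3.40 ± 0.521). The means of Ccnd2 and Ccnd1, of Ccnd1 and Cdk4, and of Cenpf and Ccnd3 lay closer than the larger SD of each pair. These 6 genes took 85.2% of all reads on the members (120960 reads).

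The other 32 genes lay between 0.0518 CPM per kb (Bub1, a checkpoint kinase) and 1.39 CPM per kb (Mcm4, a helicase subunit). Replication genes and Cdk2 formed the middle of the order: Mcm4, Mcm7, Rrm1, Mcm6, Cdk2, Mcm3, Rrm2, Mcm2, Mcm5 and Cdc45 held ranks 7 to 16. Genes of mitosis filled most of the ranks below, with Mki67 at 0.233 ± 0.0831 CPM per kb (SD, n = 14) and Top2a at 0.194 ± 0.0719. Among all tested genes, Ccnd2 was at percentile 88.4 and Mcm4 at percentile 40.6, while Top2a was at percentile 9.88 and Cenpe at percentile 0.986.

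Depth sets what can be seen in these genes. For 24 of the 38, every library held fewer than 100 reads, and only 7 had at least 100 reads in every library. Over all 14 libraries together Mki67 had 840 reads, Top2a 600 and Rrm2 533, but the mitotic cyclin gene Ccnb1 had 96 and the survivin gene Birc5 had 90. Ccnb1 had 0 reads in wild-type replicates 1 and 2 at 15 months, which allows up to 3 reads, or 0.103 and 0.122 CPM. Reads carry no molecular identifiers, so such limits cover counting error only.

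**Figure D1:**
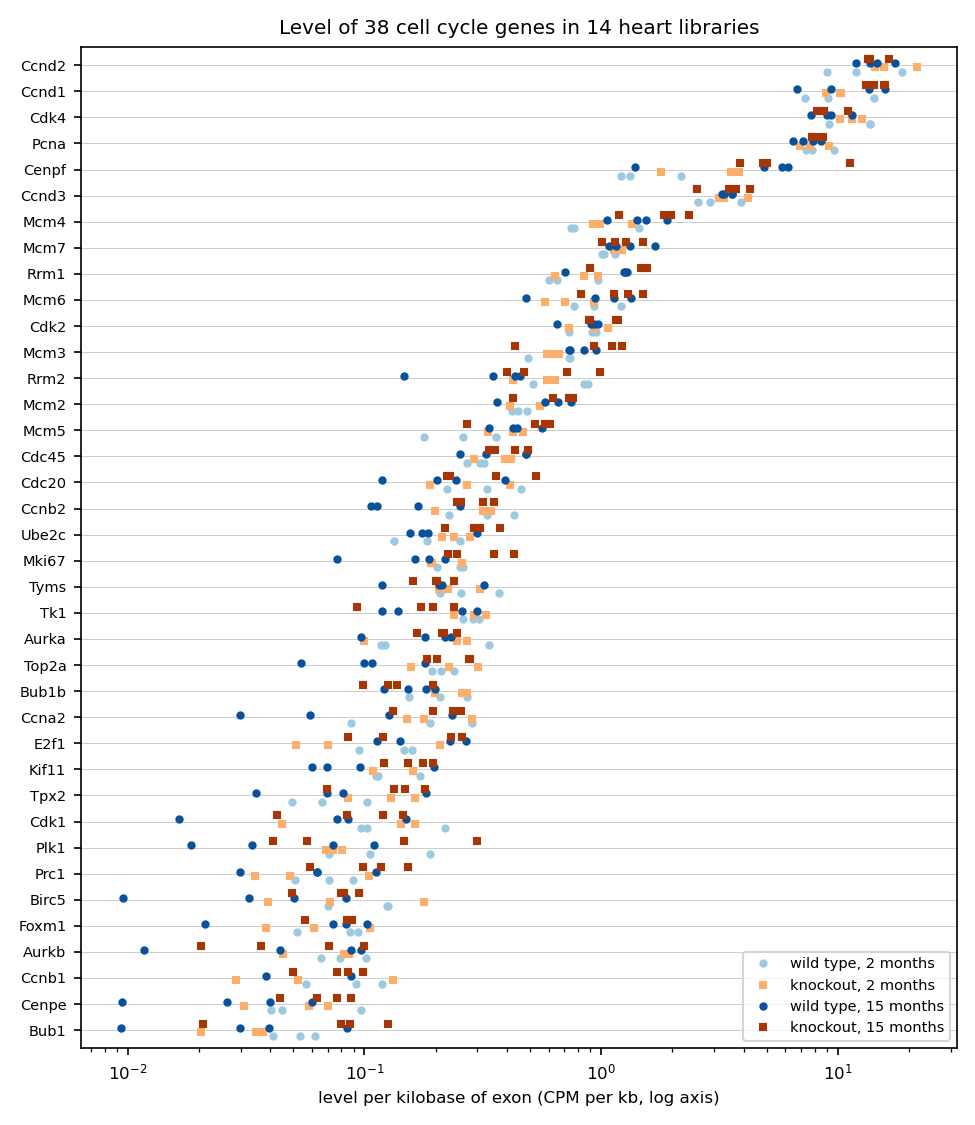
Level per kilobase of exon (CPM per kb, log axis) of the 38 genes, with 1 point per library, coloured by genotype and age; the 2 libraries with 0 Ccnb1 reads have no point. D-type cyclins, Cdk4, Pcna and Cenpf lie above 1 CPM per kb, and the mitotic genes other than Cenpf lie mostly below 0.5.

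Several members overlap exons of other genes on the opposite strand. Ccnd1 shares 1100 bases with LTO1, Cdk4 shares 641 bases with Tspan31 and Ube2c shares 592 bases with the troponin gene Tnnc2, which are 23.4%, 19.7% and 22.8% of their exon bases. The kit keeps strand, but the strand setting of the counting is not given in the sources used here, so reads of these pairs may be mixed. Top2a, Mki67, Rrm1, Rrm2, Cenpf and 5 of the 6 MCM genes (all but Mcm7) have no such overlap. Processed copies took few reads where listed: Pcna-ps2 had 70 against 6687 for Pcna, and Ccnb2-ps had 19 against 137 for Ccnb2.

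The effect of the deletion was compared first in young hearts. At 2 months 0 of the 35 genes passed the edgeR test at an adjusted p of 0.05, where 0.00644% of all tested genes did. At an unadjusted p of 0.05 again 0 of 35 passed, against 3.18% of all genes; DESeq2 and limma voom also called 0. By count, 17 genes were above 0 and 18 below, with a median log2 fold change of -0.06 (all genes: -0.0015). No tested member separated the genotypes without overlap, against 8.15% of all genes. Markers of fibroblasts and of macrophages were below 0 in 8 of 8 and 8 of 8 at this age (median -0.72 and -0.30). Endothelial markers were above 0 in 6 of 10 (median 0.12). The part of these cells was not tested. Wild-type replicate 1 was the highest in fibroblast markers (1287 CPM). Without that library the members' median was 0.0076.

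The members with the smallest p at 2 months were Cenpf, Mcm5 and Ccnd2. Cenpf, which encodes a large protein of the kinetochore and nuclear matrix, measured 33.5, 18.8 and 20.4 CPM in wild type against 27.5, 54.8 and 59.2 CPM in the knockout. Knockout replicates 2 and 3 were above all wild-type hearts and replicate 1 was among them, so the groups overlapped (log2 fold change 0.96, SE 0.50, edgeR adjusted p = 0.9997). Mcm5 was at 1.43, 0.716 and 1.04 CPM against 1.87, 1.33 and 1.70 CPM, also with overlap (0.59, SE 0.35). Ccnd2, which pairs with Cdk4 in early G1, was 0.39 higher (SE 0.24) with overlapping groups.

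The proliferation markers of young hearts lay close together in both genotypes. Mki67, which coats mitotic chromosomes, measured 2.56, 2.63 and 2.05 CPM in wild type against 1.92, 1.95 and 2.59 CPM in the knockout (log2 fold change -0.16, SE 0.34). Top2a, the topoisomerase that untangles sister chromatids, was at 1.74, 2.15 and 1.89 CPM against 2.73, 1.42 and 2.06 CPM (0.10, SE 0.37). In both genes the groups overlapped. The log2 fold changes of the other genes followed by rule were -0.20 for Birc5 (SE 0.63), -0.06 for Ccnd1 (SE 0.27), -0.09 for Cdk4 (SE 0.18), -0.40 for Mcm6 (SE 0.33), -0.06 for Pcna (SE 0.15) and -0.34 for E2f1 (SE 0.60).

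At 15 months the tested spindle genes were above 0 in the knockout by value, and 0 of 35 members passed the edgeR test, where 0.00644% of all genes did. None of the following differences is called. At an unadjusted p of 0.05, 3 of 35 were higher, against 1.82% of all genes, and 0 were lower, against 2.14% (3.97% of all genes in either direction). DESeq2 and limma voom also called 0 members. By count, 28 members were above 0 and 7 below (median log2 fold change 0.29; all genes 0.0083, with 51.7% above 0). All 9 tested genes of chromosome structure, spindle and kinetochore were above 0, from 0.20 (Aurka, a spindle pole kinase) to 1.09 (Top2a), with a median of 0.68. The 12 helicase, clamp and nucleotide genes had a median of 0.15 and the 9 cyclins and kinases a median of 0.26. Of the 3 tested checkpoint and APC genes Ube2c (0.54) and Cdc20 (0.52) were above 0 and Bub1b (-0.23, SE 0.31) below.

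Top2a, on chromosome 11 (98992943 to 99024189, minus strand), measured 0.896, 0.488, 0.974 and 1.62 CPM in wild type against 1.83, 2.503, 1.66 and 2.52 CPM in the knockout at 15 months. Every knockout heart was above every wild-type heart, though knockout replicate 3 and wild-type replicate 4 were nearly level. The log2 fold change was 1.09 (SE 0.32), or 2.13-fold, with an unadjusted edgeR p of 0.00426 and an adjusted p of 0.999. The counts behind it were 12 to 44 reads per wild-type and 34 to 72 reads per knockout library.

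Mki67, on chromosome 7 (135689784 to 135716361, minus strand), measured 1.65, 0.773, 1.88 and 2.21 CPM in wild type against 2.27, 3.55, 4.30 and 2.48 CPM in the knockout. These groups did not overlap either, again with a narrow gap between the highest wild-type and the lowest knockout heart. The log2 fold change was 0.95 (SE 0.30; unadjusted p = 0.00587, edgeR adjusted p = 0.999). Among all genes, 0.76% were higher and 1.23% lower in the knockout without overlap at this age; of the members 2 were higher and 0 lower.

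Rrm2 encodes the small subunit of ribonucleotide reductase, which is made in S phase and makes deoxynucleotides. Wild-type hearts held 0.965, 0.407, 1.20 and 1.25 CPM of it at 15 months, and knockout hearts 1.996, 2.75, 1.11 and 1.30 CPM. Knockout replicates 1, 2 and 4 were above all wild-type hearts, replicate 4 by little, and replicate 3 was among them (log2 fold change 0.89, SE 0.37, edgeR adjusted p = 0.999). Its partner Rrm1, the large subunit, differed by 0.29 (SE 0.23).

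Other cyclin and mitotic genes with few reads had wide errors. Ccnb1 was 1.27 higher (SE 0.79), Cenpe, a kinetochore motor, 0.99 (SE 0.49), Ccna2 0.84 (SE 0.52), Ccnb2 0.83 (SE 0.39) and Birc5 0.80 (SE 0.59) on the log2 scale. Cdk1 was at 0.21 (SE 0.58) and Aurka at 0.20 (SE 0.43). All of these overlapped between genotypes. Of the genes that act before mitosis, Ccnd1 was at 0.37 (SE 0.24), Ccnd2 at -0.02 (SE 0.20), Cdk4 at -0.05 (SE 0.16), Mcm6 at 0.29 (SE 0.28), Pcna at 0.11 (SE 0.13) and E2f1 at -0.08 (SE 0.47).

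**Figure D2:**
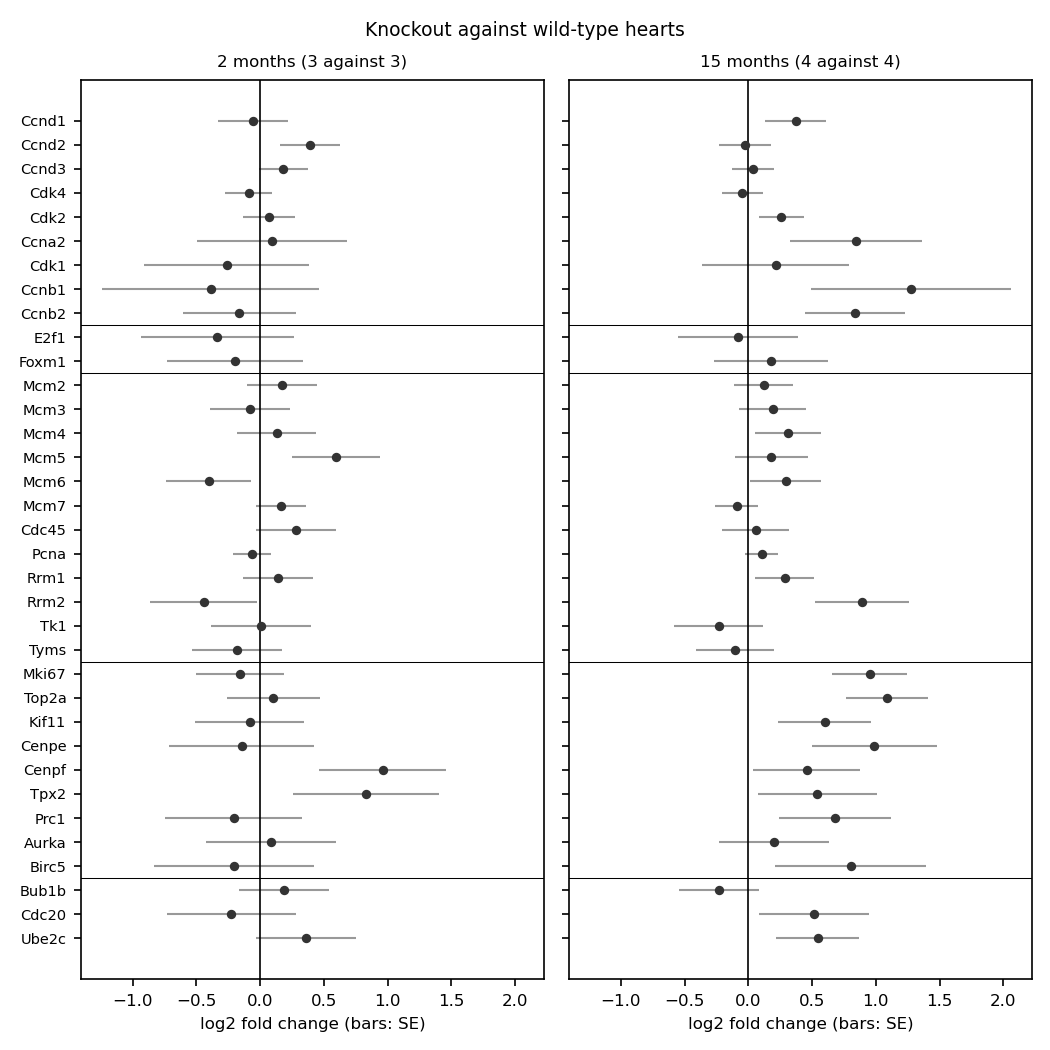
Log2 fold change of knockout against wild type (points, with SE as bars) for the 35 tested genes at 2 months (left, 3 against 3) and 15 months (right, 4 against 4); lines separate cyclins and kinases, transcription factors, replication genes, spindle genes and checkpoint genes from top to bottom. At 15 months all 9 spindle genes lie to the right of 0, between 0.20 and 1.09, and no gene passed the threshold at either age.

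The mitotic genes can also be summed within a library. The 14 spindle, kinetochore and checkpoint genes without Cenpf summed to 10.4, 10.3 and 10.4 CPM in wild-type and 11.1, 8.87 and 10.96 CPM in knockout hearts at 2 months. At 15 months they summed to 6.89, 4.88, 7.24 and 10.8 CPM in wild-type and 10.1, 14.3, 11.8 and 12.5 CPM in knockout hearts. Mki67 and Top2a, named above by their small p, are part of these sums, so the sums are not separate support. At 15 months they held 3.55 and 2.503 of 14.3 CPM in knockout replicate 2. In wild-type replicate 4 they held 2.21 and 1.62 of 10.8 CPM. The sums of 3 of the 4 aged wild-type hearts were below those of every other library, and wild-type replicate 4 was level with the young hearts. Without wild-type replicate 2, the lowest, the log2 fold changes at 15 months were 0.87 for Top2a, 0.73 for Mki67 and 0.65 for Rrm2, and the median over the members was 0.14 in place of 0.29. Without knockout replicate 2, Rrm2 was at 0.60. Without wild-type replicate 4, 11 members were higher at an unadjusted p of 0.05 in place of 3, where 4.43% of all genes passed in either direction.

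Markers of endothelial cells, fibroblasts and macrophages were also mostly above 0 in the knockout at 15 months, with 0 called. Of the endothelial markers 9 of 10 were above 0 in the knockout (median log2 fold change 0.50), with sums of 813 to 1026 CPM in wild-type and 847 to 1674 CPM in knockout hearts. Fibroblast markers were above 0 in 8 of 8 (median 0.48; 323 to 730 CPM against 553 to 998 CPM), and macrophage markers in 7 of 8 (median 0.25; 94.7 to 168 CPM against 118 to 176 CPM). In each of these lists 0 markers were at 0 in any library, and the list sums overlapped between genotypes. Their part in the higher mitotic values was not tested. Markers of smooth muscle and pericytes were above 0 in 4 of 8 (median 0.04), and those of cardiac muscle in 4 of 8 (median 0.0059). Atrial markers were above 0 in 0 of 4 (median -0.73), and tested markers of red cells and blood in 5 of 7 (median 0.37). Markers of lymphocytes and thymus summed to 0.747 to 2.58 CPM and those of neutrophils to 0.617 to 11.9 CPM over the 14 libraries, with 1 to 4 of 9 and 2 to 4 of 6 markers at 0.

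Averaged over both ages, 0 of 35 members passed the edgeR test, against 0.00644% of all genes, and 2 had an unadjusted p under 0.05, against 3.26%; DESeq2 and limma voom called 0. Those were Top2a (log2 fold change 0.60, SE 0.24) and Cenpf (0.71, SE 0.33). Tpx2, a spindle assembly factor, came next at 0.69 (SE 0.37). Here too 27 members were above 0 and 8 below, with a median of 0.17. Values of the genes followed by rule were 0.40 for Mki67 (SE 0.23), 0.30 for Birc5 (SE 0.43), 0.16 for Ccnd1 (SE 0.18), 0.18 for Ccnd2 (SE 0.16), -0.07 for Cdk4 (SE 0.12), -0.06 for Mcm6 (SE 0.22), 0.02 for Pcna (SE 0.10) and -0.21 for E2f1 (SE 0.38).

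Whether the effect of the deletion differed between the ages was tested as an interaction. None of the 35 members passed (0% of all 15528 genes did; DESeq2 and limma voom called 0 members), and 2 had an unadjusted p under 0.05, against 3.72% of all genes. The pair was Mki67, whose knockout effect was 1.11 larger at 15 months on the log2 scale (SE 0.45), and Rrm2, with 1.33 (SE 0.56). Top2a had 0.99 (SE 0.49). For Rrm2 the young knockout hearts (1.77, 1.64 and 1.17 CPM) lay within or below the range of the young wild-type hearts (1.43, 2.45 and 2.36 CPM). Fibroblast and macrophage markers gave a positive interaction in 8 of 8 and 8 of 8 (median 1.22 and 0.45), and their part was not tested. The remaining genes followed by rule gave 1.01 for Birc5 (SE 0.86), 0.43 for Ccnd1 (SE 0.36), -0.41 for Ccnd2 (SE 0.31), 0.04 for Cdk4 (SE 0.24), 0.70 for Mcm6 (SE 0.44), 0.17 for Pcna (SE 0.20) and 0.26 for E2f1 (SE 0.76). The edgeR adjusted p was 0.9999 for each.

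**Figure D3:**
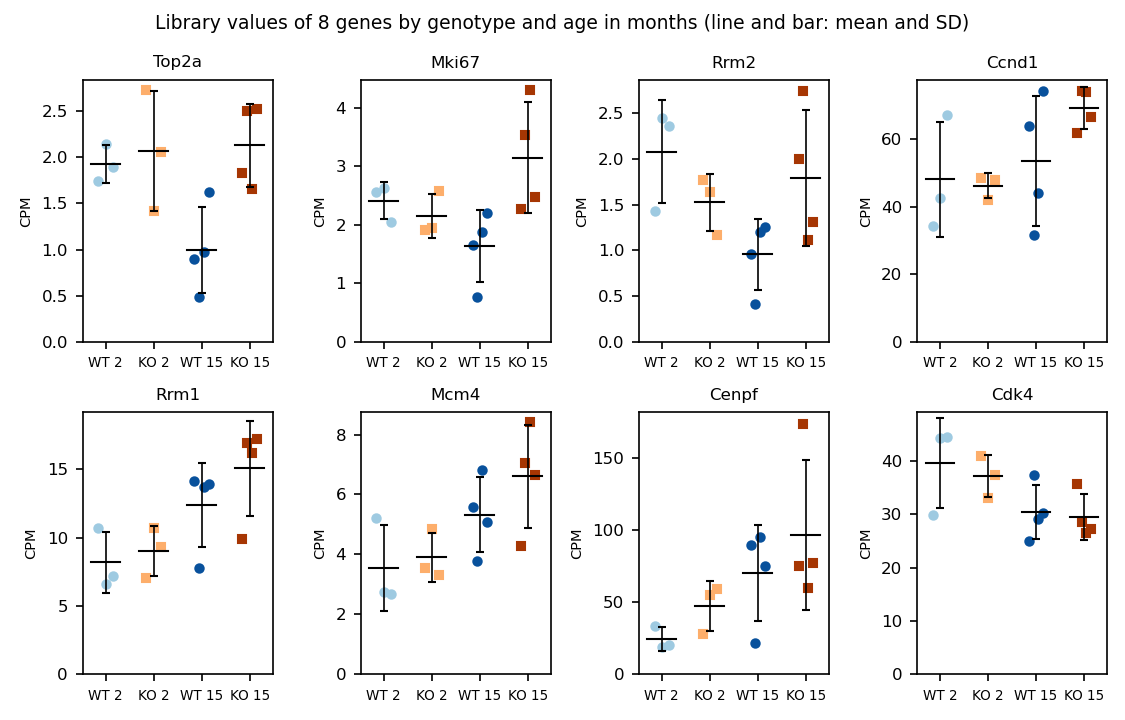
CPM in each of the 14 libraries for 8 genes, by genotype (WT, KO) and age in months; the line and bar give mean and SD. For Top2a and Mki67 the aged wild-type hearts lie below the aged knockout hearts without overlap, while Rrm1, Mcm4 and Cenpf are mostly higher and Cdk4 mostly lower at 15 months in both genotypes.

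Age was compared within each genotype; the comparisons between genotypes and between ages share libraries, so their values are given side by side and not as support for each other. In wild-type hearts 0 of 35 members passed the edgeR test between 15 and 2 months, where 1.04% of all genes did. At an unadjusted p of 0.05, 7 members passed (20 members were below 0 and 15 above; median log2 fold change -0.10), against 23.8% of all genes. Limma voom called 0 members, and DESeq2 called 1, Cenpf, where it called 7.08% of all genes. Of the MCM genes 5 were between 0.31 and 0.71 and Mcm6 was at 0.0044, while the S phase genes Rrm2 (-1.10), Tk1 (-0.49), Tyms (-0.37) and Pcna (-0.14) were below 0. Rrm1 went from 8.17 ± 2.21 CPM (SD, n = 3) to 12.4 ± 3.07 CPM (n = 4). Cdc45 went from 1.05 ± 0.0881 CPM to 1.35 ± 0.404 CPM. In all, 8 of the 12 helicase, clamp and nucleotide genes were above 0 (median 0.31). Of the 9 tested spindle genes 7 were below 0.

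Top2a and Rrm2 were lower in every aged than in every young wild-type heart; 7.57% of all genes were lower without overlap. Young wild-type hearts held 1.43, 2.45 and 2.36 CPM of Rrm2, and aged ones 0.407 to 1.25 CPM (log2 fold change -1.10, SE 0.39, edgeR adjusted p = 0.133). For Top2a the values were 1.74 to 2.15 CPM against 0.488 to 1.62 CPM (-0.94, SE 0.35, edgeR adjusted p = 0.139). Mki67 was at -0.56 (SE 0.32) and Birc5 at -1.31 (SE 0.62), both with overlapping hearts. Without wild-type replicate 2 at 15 months, the lowest heart for both genes, Rrm2 was at -0.86 and Top2a at -0.73, and the median over the members was 0.10. Fibroblast markers were below 0 with age in 8 of 8 (median -0.69), macrophage markers in 6 of 8 (median -0.30) and the 2 tested neutrophil markers in both (median -2.33). Endothelial markers were above 0 in 6 of 10 (median 0.24). The part of these cells was not tested.

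Cenpf had the largest log2 fold change with age of the tested members in wild type, and Tpx2 (0.37) was the other spindle gene above 0. Young wild-type hearts held 33.5, 18.8 and 20.4 CPM, and aged ones 89.4, 21.4, 94.8 and 75.3 CPM. Replicates 1, 3 and 4 were far above the young hearts and replicate 2 was level with them (log2 fold change 1.53, SE 0.48, edgeR adjusted p = 0.106; 0.0210 with DESeq2, and 0.0495 by edgeR without wild-type replicate 2 at 15 months). Across the 14 libraries the median Spearman correlation of Cenpf was 0.62 with the 6 MCM genes and 0.11 with the other 8 spindle genes. These are descriptions over libraries that also differ in depth and composition.

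The early-acting genes were close to 0, apart from Cdk4 and E2f1. Cdk4 was 0.38 lower on the log2 scale (SE 0.17, edgeR adjusted p = 0.198), from 39.6 ± 8.46 CPM (SD, n = 3) to 30.5 ± 5.11 CPM (n = 4). Ccnd1 was at 0.16 (SE 0.26), Ccnd2 at 0.13 (SE 0.22), Pcna at -0.14 (SE 0.14) and E2f1 at 0.47 (SE 0.53). Pcna was the steadiest member, between 15.5 and 23.1 CPM over all 14 libraries.

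In knockout hearts 0 of 35 members passed between 15 and 2 months, where 2.25% of all genes did by edgeR. At an unadjusted p of 0.05, 6 passed, against 26.7% of all genes; limma voom called 0 members and DESeq2 called 1, Rrm1, where it called 10.4% of all genes. By count, 27 members were above 0 and 8 below (median log2 fold change 0.18; all genes 0.0058). All 6 MCM genes were above 0 (median 0.45), and so were 8 of the 9 spindle genes (median 0.35). Ccnd1 and Cenpf were higher in every aged than in every young knockout heart and Tk1 and Bub1b were lower. Of all genes, 8.83% and 11.3% were higher and lower without overlap. The nearest young and aged hearts were almost level for Tk1 (1.24104 and 1.24054 CPM), Cenpf (59.2 and 59.7 CPM) and Bub1b (0.849 and 0.834 CPM). Endothelial and fibroblast markers were above 0 in 7 of 10 and 7 of 8 (median 0.62 and 0.60), and their part was not tested.

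Rrm1 and Mcm4 had the smallest p among the members above 0 in aged knockout hearts. Rrm1 was at 7.02, 10.7 and 9.34 CPM in young and 9.87, 17.0, 16.2 and 17.2 CPM in aged knockout hearts. Replicates 2, 3 and 4 were above all young hearts and replicate 1 was among them (log2 fold change 0.74, SE 0.26, edgeR adjusted p = 0.102; 0.0496 with DESeq2). Mcm4 went from 3.54, 4.83 and 3.32 CPM to 4.26, 7.06, 8.43 and 6.65 CPM, with the same aged replicate 1 among the young hearts (0.77, SE 0.29, edgeR adjusted p = 0.120). Without that library 3 of 35 members passed by edgeR, Mcm3, Mcm4 and Rrm1, where 22.6% of all genes passed.

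Ccnd1 was at 48.6, 42.0 and 48.0 CPM in young and 61.7, 74.4, 74.0 and 66.7 CPM in aged knockout hearts (log2 fold change 0.58, SE 0.26, edgeR adjusted p = 0.170). Bub1b, the checkpoint protein BubR1, was at 1.162, 1.11 and 0.849 CPM against 0.539, 0.834, 0.421 and 0.589 CPM (-0.79, SE 0.33, edgeR adjusted p = 0.149). Both separated the ages without overlap, in opposite directions. Top2a was at 0.04 (SE 0.34), Mki67 at 0.55 (SE 0.32), Birc5 at -0.30 (SE 0.60), Ccnd2 at -0.28 (SE 0.22), Cdk4 at -0.34 (SE 0.17), Mcm6 at 0.70 (SE 0.31), Pcna at 0.03 (SE 0.14) and E2f1 at 0.72 (SE 0.55).

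**Figure D4:**
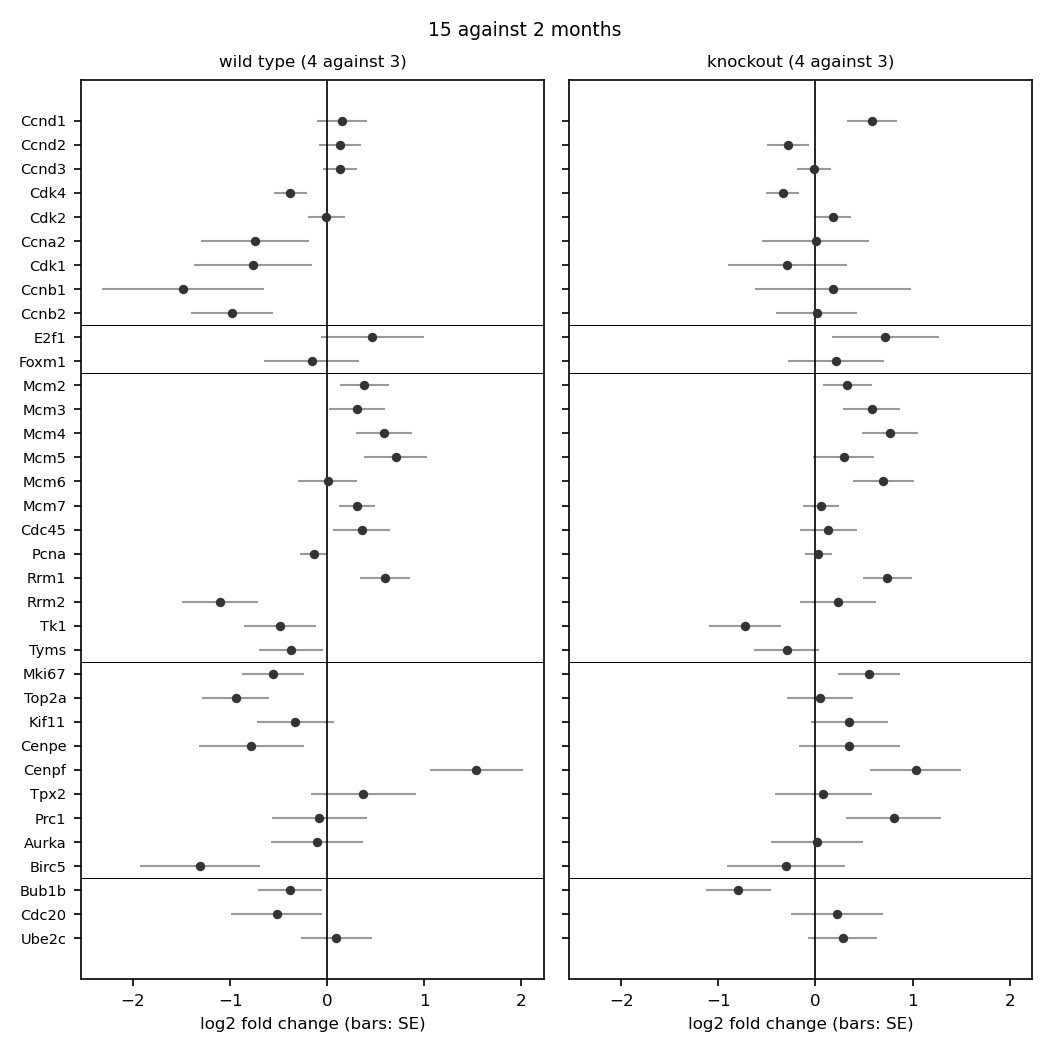
Log2 fold change of 15 against 2 months (points, with SE as bars) for the 35 tested genes in wild-type (left) and knockout hearts (right), 4 against 3 libraries each, in the same order and blocks of roles. Cenpf is high in both panels (1.53 and 1.03), and Rrm2 and Top2a lie at -1.10 and -0.94 in wild type and at 0.23 and 0.04 in knockout hearts; no gene passed the threshold in either panel.

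A property of the libraries moved with age alongside these genes. For each library, the deviations of all genes from their mean log2 CPM were regressed on log2 exon length, which gives a length slope. It was -0.183 to -0.0119 in young wild-type, -0.141 to -0.0456 in young knockout, -0.0780 to 0.121 in aged wild-type and -0.0961 to 0.246 in aged knockout hearts. Across the 14 libraries its Spearman correlation was 0.947 with Mcm4, 0.921 with Rrm1, 0.776 with Cenpf and -0.934 with Cdk4, but 0.112 with Mki67 and -0.354 with Top2a. The exon lengths of these genes were 3589, 11012, 15433, 3249, 10061 and 9013 bases in the same order. In a fit that also held this slope, tried after values had been seen, the age effect in knockout hearts was 0.01 for Mcm4, 0.09 for Rrm1 and 0.27 for Cenpf, and in wild type 0.08, 0.12 and 0.88. The slope changed the age values of all genes too. With it, 1495 of 15528 genes had an unadjusted edgeR p under 0.05 with age in knockout hearts, in place of 4151. In wild type 2241 did, in place of 3694. Under the same covariate the knockout effect at 15 months was 1.09 for Top2a, 0.78 for Mki67 and 0.89 for Rrm2. The slopes of the ages overlapped in part, and the part of the slope in the age values was otherwise not tested.

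**Figure D5:**
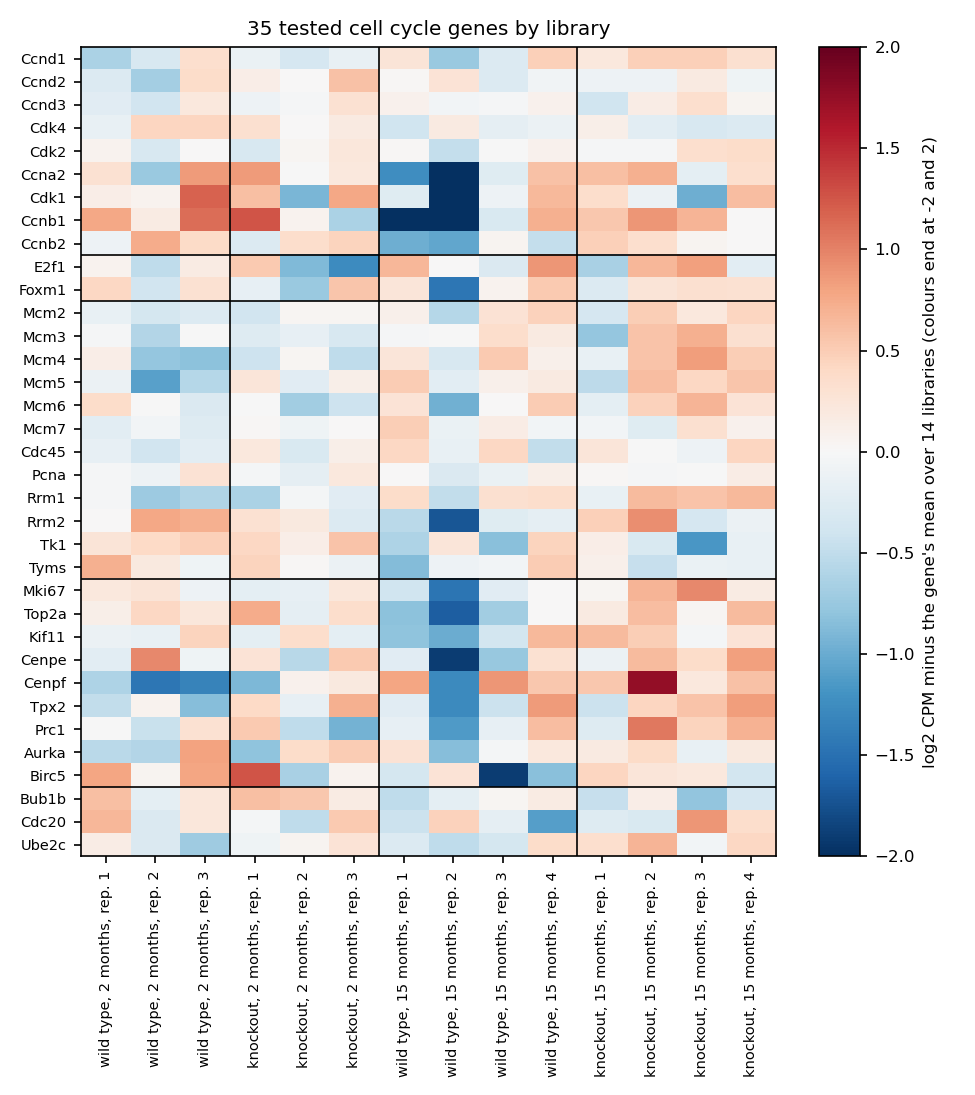
Log2 CPM of the 35 tested genes in each library relative to the gene's mean over the 14 libraries (colour scale from -2 to 2), in blocks of roles; columns are grouped by age and genotype. The aged wild-type replicate 2 is low for 29 of 35 genes, and the aged knockout replicates 2 to 4 are high for most MCM genes, Rrm1 and the spindle genes.

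Members also varied together in ways that followed their roles only in part. The median Spearman correlation over pairs and 14 libraries was 0.60 for the 6 MCM genes, 0.62 for the 3 D-type cyclins, 0.31 for the 9 spindle genes and 0.17 for all 595 pairs of tested members. The most alike pairs were Mcm4 and Rrm1 (0.908), Mcm2 and Rrm1 (0.877) and Rrm1 and Cenpf (0.842). The most opposed were Cdk4 with Mcm4 (-0.938) and with Rrm1 (-0.930). Each gene of these pairs had a Spearman correlation with the length slope of at least 0.776 in size (Mcm2: 0.785).

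The rest of the pathway was read from 118 further genes in 6 lists, of which 102 were tested. In the comparisons of genotype and the interaction 0 of the 102 passed by edgeR. At 15 months 61 of them were above 0 in the knockout and 41 below (median log2 fold change 0.05), and in the list of mitosis and cytokinesis genes 21 of 28 were above 0 (median 0.24). Of the replication fork and nucleotide genes 9 of 25 were above 0 (median -0.035), and the remaining lists had medians of 0.05 to 0.20. At 2 months 34 of the 102 were above 0 and 68 below (median -0.07), with 8 of 28 mitosis and cytokinesis genes above 0 (median -0.15). Only the list of cyclin-CDK core genes and phosphatases had a median above 0 at 2 months (0.04). The smallest p of each list at 15 months belonged to Nusap1, a spindle protein (0.88, SE 0.34, without overlap), Pclaf, a partner of Pcna (1.34, SE 0.56), Cdkn2d, an inhibitor of Cdk4 (-0.52, SE 0.14, without overlap), Pkmyt1, a kinase that holds Cdk1 inactive (0.55, SE 0.41), E2f6 (-0.29, SE 0.15) and Orc2 of the origin recognition complex (-0.24, SE 0.14). The edgeR adjusted p was 0.999 for each.

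Cdkn2d stood at 7.37, 6.96, 5.75 and 6.78 CPM in aged wild-type and 4.37, 4.66, 4.94 and 4.796 CPM in aged knockout hearts, every knockout heart below every wild-type heart. Nusap1 was at 0.655, 0.407, 0.715 and 0.700 CPM against 2.05, 0.904, 0.843 and 0.883 CPM. Both were named by their small p, and neither passed the adjusted threshold. Of the 102 tested genes, 1 (Nusap1) was higher and 2 (Cdkn2d and Rpa2) were lower in the knockout without overlap at this age. Among all genes 0.76% were higher and 1.23% lower without overlap.

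With age, a single gene of the 102 passed by edgeR, in knockout hearts, where 2.25% of all genes did. Ccne2, the E-type cyclin that works with Cdk2 at the start of S phase, fell from 6.52, 4.57 and 5.94 CPM to 3.72, 2.19, 1.66 and 2.65 CPM (log2 fold change -1.17, SE 0.28, edgeR adjusted p = 0.0435). In wild type it went from 4.15, 6.45 and 6.14 CPM to 2.34, 3.05, 2.08 and 3.65 CPM (-1.003, SE 0.27, edgeR adjusted p = 0.0831). DESeq2 called Ccne2 in wild type (-1.004), where it called 7.08% of all genes. By edgeR it also passed in wild type in some of the fits with a library left out. In both genotypes the ages did not overlap. Of all genes, 7.57% in wild-type and 11.3% in knockout hearts were lower with age without overlap. The call in knockout hearts was lost with the length slope as a covariate (-0.53, adjusted p = 0.492), with a fit of the compared groups only (0.0862) and with a replicate block (0.102). It was also lost without wild-type replicates 2 or 3 at 2 months or 1 or 4 at 15 months, and without any knockout library but replicate 1 at 15 months; over the libraries left out in turn the adjusted p ran from 0.00648 to 0.190.

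Other pathway genes with age are given as values. Of those named below, DESeq2 called Incenp (1.073) and Cdkn1b (-0.418) in wild type, where it called 7.08% of all genes. In knockout hearts it called Sgo2a (0.699) and Rbl2 (0.317), where it called 10.4%. With a mean CPM of at least 1, edgeR called Cdkn1b in wild type (-0.436), where 172 of 12721 genes were called. In wild type the smallest p of each list belonged to Pclaf (-2.44, SE 0.56, edgeR adjusted p = 0.0528), Incenp, which anchors Aurkb (1.10, SE 0.27, 0.0618), Cdkn1b, the inhibitor p27 (-0.42, SE 0.10, 0.0672), Ccne2, Lin37 of MuvB (-0.44, SE 0.14, 0.114) and Orc4 (-0.29, SE 0.17, 0.306). In knockout hearts they were Ccne2, Sgo2a, which protects centromere cohesion (0.68, SE 0.19, 0.0649), Cdkn2d (-0.47, SE 0.15, 0.0946), Rbl2, a pocket protein (0.30, SE 0.11, 0.102), Dut (-0.63, SE 0.25, 0.128) and Gmnn (-0.52, SE 0.24, 0.189). Between genotypes at 2 months they were Incenp (0.72, SE 0.28), Prim1 (-0.81, SE 0.41), Cdc25b (-0.40, SE 0.24), Cdkn1b (-0.15, SE 0.11), Rbl1 (-0.43, SE 0.32) and Cdc7 (-0.45, SE 0.53), with an edgeR adjusted p of 0.9997 for each. Averaged over both ages they were Cdkn2d (-0.33, SE 0.11), Aspm of the spindle poles (0.58, SE 0.25), E2f6 (-0.25, SE 0.12), Rfc4 of the clamp loader (-0.42, SE 0.20), Orc2 (-0.14, SE 0.11) and the checkpoint kinase gene Chek1 (0.34, SE 0.28). In the interaction they were Nusap1 (1.66, SE 0.52), Pclaf (2.14, SE 0.79), Cdkn1b (0.37, SE 0.15), Cdc25b (0.65, SE 0.31), Rbl1 (0.48, SE 0.42) and Gins1 (0.53, SE 0.49).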

How the data were processed

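Whole-heart RNA of 14 mice was sequenced from stranded, rRNA-depleted total RNA libraries, per the labels' protocols. The authors deposited raw counts per Ensembl gene; cutadapt 1.16, STAR 2.7.3a, featureCounts 1.6.3, DESeq2 1.26.0 and the build GRCm38 are named in the submitters' processing notes. For the annotation release, the strand setting and multi-mapped reads the entry is: not given in the sources used here. Symbols, positions and lengths came from GENCODE M21, which held 55227 of 55487 identifiers. The table held 0 columns without a sample. Library pairs differed by a chi-square of at least 18.2 per degree of freedom, so no library was a repeat.

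The tests used edgeR 4.0.16 (R 4.3.3) on the counts: filterByExpr (minimum count 10, minimum total 15), TMM scaling, and a robust quasi-likelihood fit of all 14 libraries with 1 mean per group. Benjamini-Hochberg adjustment ran over 15528 genes, with 0.05 as threshold. The SE is the log2 fold change divided by the square root of F. Levels are CPM. The scripts were tested on simulated data. Alternatives (RLE factors, other filters, DESeq2 1.42.0, voom in limma 3.58.1, only the compared groups, a replicate block, no mitochondrial genes, each library left out) are in the closing section.

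The 38 genes, the lists and the naming rule were chosen with earlier results of these data known. The rule named up to 8 members past the threshold or the 3 with the smallest p where none passed, 9 fixed members, and of each other list up to 3 genes past the threshold or the 1 with the smallest p. Motifs and the promoters shown were chosen after values were seen.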

Additional observations from a re-analysis of the deposited data

Results flagged for a closer look

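Values of the 35 tested genes were examined in the groups of 4 hearts at 15 months for a single heart set apart from the other 3, by the gap to its neighbour over the group's range (Dixon's 95% critical value). Of 70 groups 5 were marked, and chance marks about 1 in 20. Rrm1 was low in wild-type replicate 2 (7.77 CPM, others 13.7 to 14.1) and in knockout replicate 1 (9.87 CPM, others 16.2 to 17.2). Cenpf was high in knockout replicate 2 (174 CPM, others 59.7 to 77.4), and without that library its log2 fold change with age in knockout hearts was 0.58 in place of 1.03. Ccnd2 was high in knockout replicate 3 (154 CPM, others 126 to 128), and Foxm1, the transcription factor of mitotic genes, was low in knockout replicate 1 (0.324 CPM, others 0.487 to 0.512). The Foxm1 values rest on few reads, 6 in that library and 12 to 17 in the others.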

How the results depend on the processing

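The count of members called was 0 for the comparisons between genotypes and the interaction under every alternative run. With age it was 0 to 1 in wild type (1 with DESeq2, where 7.08% of all genes were called, and 1 without replicate 2 at 15 months, where 0.975% were) and 0 to 3 in knockout hearts (1 with DESeq2, where 10.4% of all genes were called, and 3 without knockout replicate 1 at 15 months, where 22.6% were). Replicate numbers did not pair the hearts (correlations of same-numbered deviations -0.43 to 0.289); with a replicate block 0 members were called in every comparison, and Ccne2 in aged knockout hearts had an adjusted p of 0.102. The median over the members at 2 months was -0.06, and 0.07 among genes with a mean CPM of at least 1; with age in wild type it was -0.10, 0.12 with that filter and 0.10 without wild-type replicate 2 at 15 months. At 15 months 6 members were higher at an unadjusted p of 0.05 by limma voom, where 4.04% of all genes passed in either direction.

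Signs changed for the values that follow, none of them called. The cause was not tested. Leaving out each library in turn gave these ranges of log2 fold change. Knockout against wild type at 2 months: Top2a -0.14 to 0.32, Birc5 -0.95 to 0.18, Ccnd1 -0.25 to 0.28, Cdk4 -0.25 to 0.021, Pcna -0.18 to 0.079 and E2f1 -1.14 to 0.021. At 15 months the ranges were -0.10 to 0.081 for Ccnd2, -0.15 to 0.065 for Cdk4 and -0.33 to 0.15 for E2f1, and averaged over both ages -0.072 to 0.54 for Birc5, -0.17 to 0.049 for Mcm6 and -0.038 to 0.095 for Pcna. With age in wild type Ccnd1 ran from -0.040 to 0.50, Ccnd2 from -0.07705 to 0.48, Mcm6 from -0.18 to 0.23 and Pcna from -0.21 to 0.0072; in knockout hearts Top2a ran from -0.17 to 0.29, Birc5 from -0.68 to 0.45 and Pcna from -0.057 to 0.15. In the interaction Cdk4 ran from -0.064 to 0.21 and E2f1 from -0.10 to 1.06. Mcm6 with age in wild type was -0.017 with a mean CPM of at least 1, -0.053 with limma voom, -0.11 with a replicate block and -0.011 without mitochondrially encoded genes. With a replicate block, age in knockout hearts gave -0.11 for Top2a and -0.01049 for Pcna. In the fit that also held the length slope, tried after values had been seen, Cdk4 was at 0.066 between genotypes at 15 months, Ccnd1 at -0.0034 and Mcm6 at -0.43 with age in wild type, E2f1 at -0.040 in the interaction, and with age in knockout hearts Mki67 at -0.0542, Birc5 at 0.17, Cdk4 at 0.0495, E2f1 at -0.0263 and Gmnn at 0.054.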
